A study of Mus musculus with 8 samples.

Results

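The 10 genes described here are Atf4 and 9 genes of the amino acid and unfolded protein response that it governs, namely Ddit3, Trib3, Chac1, Asns, Sesn2, Psat1, Phgdh, Slc7a11 and Atf3. They were chosen by name and read through every probe set annotated to exactly 1 of these symbols, which gave 21 probe sets for 10 of the 18193 genes on the array. RNA of mouse induced pluripotent stem (iPS) cells was hybridised to Affymetrix 430_2 arrays, with a single array for each clone. The study set 4 clones derived with ascorbic acid (vitamin C) beside 4 derived without it. Both groups came from embryonic fibroblasts of Col-OKSM reprogrammable mice, in which doxycycline switches on Oct4, Sox2, Klf4 and cMyc, and doxycycline was in the medium of all clones. All clones also shared a serum medium with LIF, L-glutamine, non-essential amino acids and beta-mercaptoethanol, and all grew on irradiated fibroblast feeders that were reduced by preplating before RNA was taken. Each clone is a biological replicate in the labels, which name no embryo or culture of origin. A p-value here thus sets the group difference only against the scatter among these clones.

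ATF4 is a basic leucine zipper transcription factor that is made when translation is slowed. Kinases that sense amino acid shortage, misfolded protein in the endoplasmic reticulum, heme shortage or viral RNA phosphorylate the initiation factor eIF2, which lowers protein synthesis in general but favours translation of the Atf4 message. ATF4 then raises genes for amino acid synthesis and uptake and, when stress persists, genes that damp the response or promote cell death. Because much of this control acts on translation, the level of Atf4 RNA alone is no measure of ATF4 protein, which was not measured here.

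Many ATF4 targets carry a C/EBP-ATF response element (CARE), at which ATF4 binds with a C/EBP partner. The RefSeq promoter windows (assembly GRCm38.p6, 250 bases before to 50 after the annotated start) hold an entry for each of the 10 genes, 11 windows in all because Psat1 has more than 1. The letters TGATGNAA, searched on both strands, occurred in 5 of these 11 windows and in 3.97% of all 32851 windows of that length. The matches before the start, found in 4 of the 10 genes, are shown because CARE is the element at which ATF4 is known to bind; capitals mark the matched letters, and TTGCATCA is the match read from the other strand.
Asns (chr6:7693210-7693248, minus strand): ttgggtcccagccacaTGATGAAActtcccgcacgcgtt
Atf3 (chr1:191183420-191183459, minus strand): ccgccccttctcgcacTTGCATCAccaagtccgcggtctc
Chac1 (chr2:119351033-119351072, plus strand): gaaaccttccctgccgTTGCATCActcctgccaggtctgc
Slc7a11 (chr3:50443637-50443695, minus strand): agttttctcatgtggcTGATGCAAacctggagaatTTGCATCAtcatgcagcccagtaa
Asns, Atf3 and Chac1 each had 1 match before the start, Slc7a11 had 2, and Trib3 had 1 that begins 15 bases after it. The windows of Atf4, Ddit3, Sesn2, Psat1 and Phgdh held none of these letters. The cyclic AMP element TGACGTCA, which is the same on both strands, and the endoplasmic reticulum stress element (ERSE), on both strands, matched no window of the 10 genes, against 1.79% and 0.119% of all windows. These matches describe the letters in a short window, and no binding was measured.

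The labelled cell type was checked against its markers. All 10 pluripotent cell markers, among them Pou5f1, Nanog and Sox2, were above the limit used to leave out dim probe sets (a signal of 93.7), and their signals summed to 91768 to 110327 in clones with and 101402 to 114602 in clones without the supplement. All 10 were lower with ascorbic acid, by a median log2 difference of -0.099, and none passed (limma, smallest adjusted p = 0.844), with 0 at an unadjusted p under 0.05. All 10 fibroblast and feeder markers were above that limit too, with none at 0, and 9 of 10 were lower with ascorbic acid (median log2 difference -0.23), so the means of both marker lists were lower in that group. None of the feeder markers passed the test, but 6 of 10 had an unadjusted limma p under 0.05 (5 lower and 1, Twist1, higher). That share was 5.83% of all tested genes. The groups did not overlap in 1 of the 10, Postn (286 to 357 with and 389 to 440 without), against 3.63% of all tested genes. The summed signal of the feeder markers was 37667 to 46606 with and 44783 to 48505 without. Within that sum Fn1 (means of 11842 with and 13281 without) and Vim (11871 and 13535) read highest. Which cells gave these RNAs, how many they were and how much RNA each held cannot be told apart in bulk RNA. The part of feeder RNA in the values below was not tested. The 3' to 5' actin ratio measures RNA integrity and rises as RNA is degraded. It was 1.22 to 1.28 with and 1.14 to 1.26 without.

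None of the 9 tested ATF4 genes passed the adjusted threshold, and Slc7a11, below the dim limit, was not tested. In the fit across all 13125 tested genes 3 passed an adjusted p of 0.05, which is 0.0229%, and 0 of the 9 tested members were among them (limma, smallest adjusted p = 0.844). With unadjusted p under 0.05 there was 1 of 9, Atf4, against 5.83% of all tested genes. The groups overlapped in each of the 9 members, while they were apart in 3.63% of all tested genes. Of the 9, 6 were higher with ascorbic acid and 3 were lower, and 48.6% of all tested genes were higher. The median log2 difference of the 9 members was 0.024 and that of all tested genes -0.0042. Their median absolute difference was 0.11 log2, against 0.081 for all tested genes. The widest 95% bounds among the 9 genes were 0.749-fold and 1.39-fold, so for these probe sets changes beyond those bounds lay outside the intervals of the fit.

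**Figure D1:**
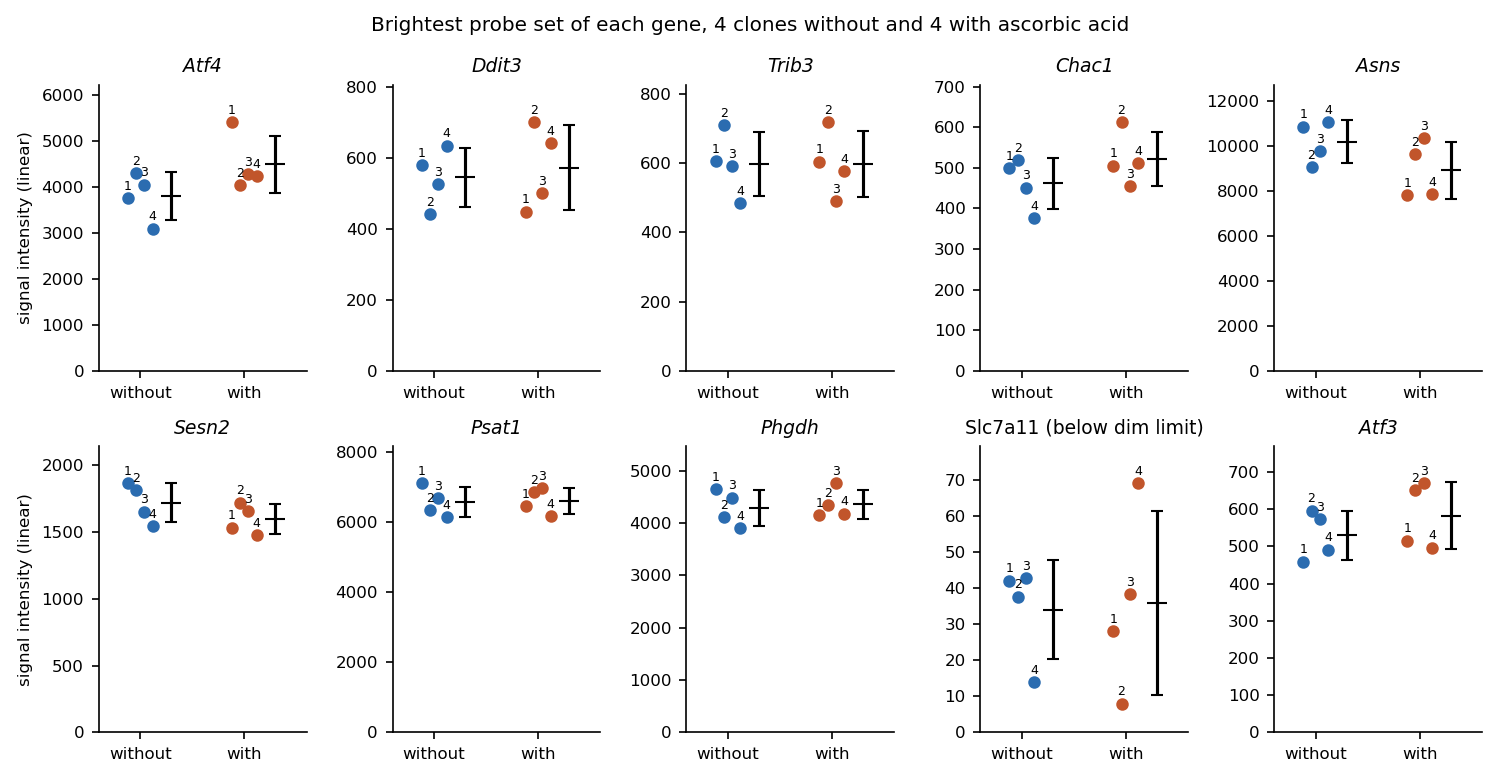
Signal intensity (linear scale from 0) of the brightest probe set of each of the 10 genes, with 1 point per clone and its clone number, 4 clones without (blue) and 4 with ascorbic acid (orange); black bars are the mean ± SD. The clones of both groups overlap in every panel, and Slc7a11 reads 7.97 to 68.9, below the dim limit of 93.7.

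Atf4 itself showed the widest difference of the members, and it did not pass. Its brightest probe set read 5417, 4046, 4281 and 4237 in clones 1 to 4 with ascorbic acid and 3756, 4305, 4053 and 3092 in clones 1 to 4 without. Clone 1 with ascorbic acid was the highest and clone 4 without the lowest, and the other 6 clones lay between 3756 and 4305 in both groups. The group means were 4495 ± 623 with and 3801 ± 524 without (SD, n = 4 each). On the log2 scale they differed by 0.24 ± 0.11 (SE), with a 95% interval of 0.0041 to 0.48. The unadjusted limma p was 0.0467 and the adjusted p 0.844, and an exact permutation test over the 70 assignments of the clones gave a two-sided p of 0.2. The smallest p that test can give is 0.0286. Without clone 1 of the group with ascorbic acid the log2 difference was 0.14 on the other probe set, which was then the brighter, and without clone 4 of the group without it was 0.15 (limma, adjusted p = 0.912 and 0.944).

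The other Atf4 probe set at this brightness, which is not of the _x_at class of possibly cross-hybridising probe sets, gave another order of clones. It read 3666, 4926, 4036 and 3834 with and 4106, 3868, 3859 and 3578 without ascorbic acid. Clone 2 with ascorbic acid was the highest here, and clone 1 of that group, highest on the brightest probe set, was the second lowest. The log2 difference was 0.087 ± 0.088 (SE; limma over 27022 probe sets, adjusted p = 0.923). The remaining Atf4 probe set read 9.25 to 24.1 in the 8 clones, below the dim limit, and was not tested.

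Ddit3 and Atf3 encode further basic leucine zipper factors that ATF4 raises. DDIT3, also called CHOP, promotes cell death under lasting stress, and ATF3 represses many stress-induced genes. Ddit3 read 449, 703, 501 and 643 in clones 1 to 4 with ascorbic acid and 580, 442, 527 and 635 without. The highest clone (703) and one close to the lowest (449) were both in the group with ascorbic acid, so neither group was the higher as a whole. The log2 difference was 0.060 ± 0.15 (SE; limma, adjusted p = 0.970), with a 95% interval from 0.835-fold to 1.30-fold. The other Ddit3 probe set was dimmer and scattered more, at 123 to 208 with and 97.1 to 236 without, and differed by -0.088 log2 (limma over the probe sets, adjusted p = 0.981). Atf3 has 1 probe set, which read 515, 651, 669 and 497 with and 459, 596, 573 and 491 without. Clones 2 and 3 were the high ones in both groups, and clones 1 and 4 the low ones. Atf3 differed by 0.13 ± 0.12 log2 (SE; limma, adjusted p = 0.906).

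Trib3, Chac1 and Sesn2 are further genes of the response, of which Trib3 feeds back on it. TRIB3 is a pseudokinase that binds ATF4 and limits its activity, CHAC1 degrades glutathione, and SESN2 holds back mTORC1 when leucine is scarce and also answers to p53 and oxidative stress. Trib3 read 604, 719, 489 and 577 with and 606, 710, 591 and 484 without ascorbic acid, so that its group means were 597 ± 94.8 and 598 ± 92.4 (SD, n = 4 per group). The log2 difference was -0.0016 ± 0.13 (SE; limma, adjusted p = 0.998). Its second probe set, at 419 to 562 with and 426 to 521 without, had a difference of 0.014.

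Chac1 read 505, 613, 454 and 511 with ascorbic acid and 499, 519, 451 and 376 without on its only probe set. Clone 2 was the highest of each group, and clone 4 without was the lowest of all. The means were 521 ± 66.6 and 461 ± 63.7 (SD, n = 4 each). They differed by 0.17 ± 0.12 log2 (SE; limma, adjusted p = 0.860), with a 95% interval from 0.939-fold to 1.35-fold. Sesn2 read 1530, 1718, 1651 and 1472 with and 1861, 1812, 1650 and 1542 without. The highest clones were 1 and 2 without ascorbic acid, and the lowest were 1 and 4 with it, with the rest interleaved. Sesn2 was at -0.11 ± 0.075 log2 (SE; limma, adjusted p = 0.865), and its second probe set was at -0.081.

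Asns, Psat1 and Phgdh make amino acids. ASNS makes asparagine from aspartate and glutamine, PHGDH starts the branch from glycolysis to serine, and PSAT1 carries out the next step of that branch. Asns read 7811, 9646, 10341 and 7873 with and 10858, 9053, 9770 and 11078 without ascorbic acid. Clones 1 and 4 with ascorbic acid were lower than all others, and clones 1 and 4 without were higher than all others. The means were 8918 ± 1275 and 10189 ± 949 (SD, n = 4 each). The log2 difference of -0.20 ± 0.10 (SE) was the largest in the lower direction among the members, opposite in sign to Atf4, and did not pass (limma, p = 0.0729, adjusted p = 0.844; exact permutation p = 0.171). Its 95% interval ran from 0.749-fold to 1.02-fold. The second Asns probe set was at -0.14 (limma over all probe sets, adjusted p = 0.882).

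Psat1 and Phgdh varied least among the members on their brightest probe sets. Psat1 read 6457, 6861, 6973 and 6175 with and 7113, 6353, 6689 and 6140 without ascorbic acid, and its highest clone was 1.16 times its lowest. The log2 difference was 0.0099 ± 0.065 (SE; limma, adjusted p = 0.987), with a 95% interval from 0.912-fold to 1.11-fold. Its second probe set, named _s_at because its probes may match more than 1 transcript, was at 0.14 ± 0.093 (limma over all probe sets, adjusted p = 0.882). Phgdh read 4150, 4342, 4755 and 4178 with and 4649, 4115, 4485 and 3904 without. The difference was 0.024 ± 0.070 log2 (SE; limma, adjusted p = 0.98), and the other 3 Phgdh probe sets were at 0.030 to 0.088. All 4 are of the _x_at class, and 2 further probe sets are annotated to Phgdh together with Gm8096 or Gm6756 and were not tested under the gene's name.

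Slc7a11 encodes the cystine importer that supplies glutathione synthesis, and it was the 1 member below the dim limit. Its brighter probe set read 28.1, 7.97, 38.3 and 68.9 with and 42.0, 37.5, 42.6 and 13.9 without ascorbic acid. The lowest and the highest clone were both in the group with ascorbic acid. The other probe set read 5.43 to 35.6 over the 8 clones. Neither was tested in the fit that leaves out dim probe sets, and at this brightness a difference between the groups was not detectable. The promoter with 2 CARE matches shown above is that of this gene.

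**Figure D2:**
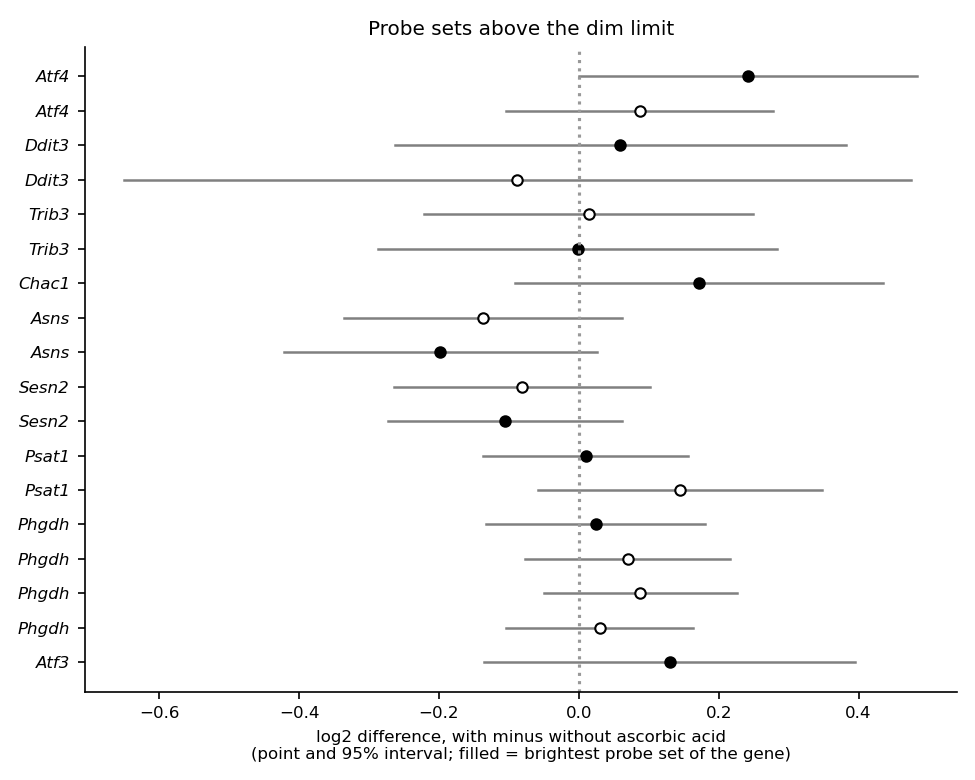
Log2 difference, with minus without ascorbic acid, for the 18 probe sets of the members above the dim limit, as the estimate and its 95% interval from limma over all 27022 tested probe sets; filled points are the brightest probe set of each gene. Of the 18, 12 lie above 0 and 6 below, and the interval of the brightest Atf4 probe set touches 0 at its lower end.

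Over single probe sets the result was the same. Of 18 member probe sets above the dim limit, 0 passed (limma over all probe sets, adjusted p = 0.882 to 0.999), against 0.0481% of all 27022 tested. With an unadjusted p under 0.05 there was 1, the brightest of Atf4, just under that limit, against 5.55% of all. In none of the 18 were the groups apart, against 3.4% of all.

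Read clone by clone, 1 clone stood below the rest, and which stood highest depended on the summary. Measured as the mean deviation of the 9 tested members from each gene's mean over the clones, clone 2 with ascorbic acid stood highest at 0.14 log2, with 8 of 9 members above their own mean. Clone 4 without ascorbic acid stood lowest at -0.13 log2, with 7 of 9 below. The other 6 clones lay between -0.047 and 0.037, the last value being clone 1 without ascorbic acid with 7 of 9 above. By the median deviation clone 2 with ascorbic acid, at 0.059, was below clones 2 and 1 without (0.068 and 0.067) and clone 3 with ascorbic acid (0.060), while clone 4 without was again the lowest, at -0.14. On the brightest probe sets clone 2 with ascorbic acid was the highest of the 8 in Ddit3, Trib3 and Chac1. Its summed feeder marker signal was 46606, against 37667 to 38863 in the others of its group. The part of feeder RNA in its high values was not tested. Clone 4 without was the lowest in Atf4, Trib3, Chac1, Psat1 and Phgdh on the brightest probe sets, yet the highest in Asns. The other probe sets of Atf4 and Psat1 above the dim limit were also lowest in that clone. The other Phgdh probe sets, however, were lowest in clone 2 without, and the other of Trib3 in clone 4 with ascorbic acid. The other probe set of Asns was highest in clone 1 without, and that of Ddit3 in clone 3 without. Clone 4 without also had the lowest actin ratio, the side of more intact RNA, at 1.14 against 1.21 to 1.28 in the others. The part of RNA quality in its low values was not tested. The median deviation of all tested genes was -0.0014 to 0.0091 in the 8 clones. From 49.7% (clone 2 without) to 52.7% (clone 3 without) of all tested genes lay above their own mean. By group the mean of the members' deviations was 0.018 ± 0.089 with and -0.018 ± 0.074 without ascorbic acid (SD over 4 clones), a gap smaller than the spread within either group.

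**Figure D3:**
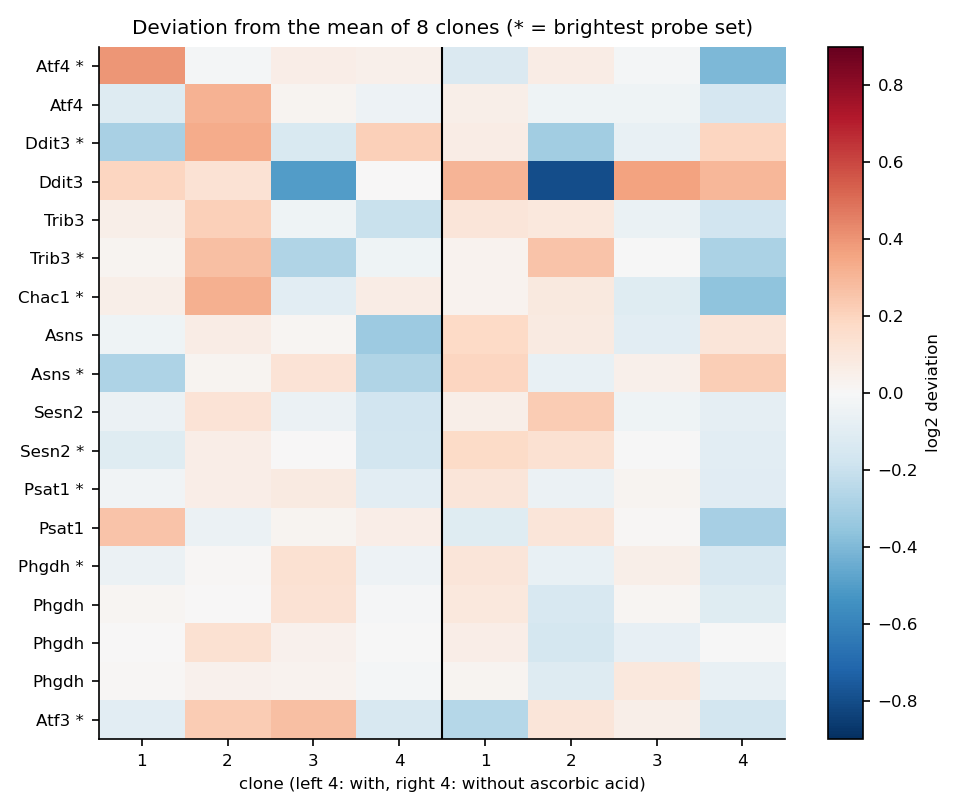
Log2 deviation of each member probe set above the dim limit from its own mean over the 8 clones (rows; * marks the brightest probe set of a gene), with clones 1 to 4 with ascorbic acid on the left and 1 to 4 without on the right. Clone 2 with ascorbic acid is mostly red and clone 4 without mostly blue, and no row separates the left from the right side.

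The spread within groups differed between members. On the brightest probe sets the SD within groups was 0.087 log2 for Psat1, 0.10 for Phgdh and 0.11 for Sesn2. These lie below the median of 0.15 over all tested genes. It was 0.17 for Asns, 0.19 for Chac1, 0.20 for Atf4 and Atf3, 0.22 for Trib3 and 0.26 for Ddit3. The amino acid enzymes of the serine branch were thus the steadiest over the clones on these probe sets. The transcription factors and Trib3 were the most variable on these same probe sets, which was not tested. The highest clone of Psat1 was 1.16 times its lowest on the brightest and 1.48 times on the other probe set. For Atf4 it was 1.75 times on the brightest and 1.38 times on the other probe set above the dim limit. For Trib3 it was 1.49 times on the brightest and 1.34 times on the other probe set, and for Asns 1.42 times on both. The order of Psat1 and Atf4, and that of Trib3 and Asns, by this measure thus depends on the probe set read.

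Pairs of members were compared over the 8 clones, 36 pairs among the 9 tested genes, with p-values adjusted over the 36. None passed the exact permutation test over all 40320 pairings (smallest adjusted p = 0.0571), 3 had an unadjusted p under 0.05, and 25 of 36 were positive, with a median r of 0.21. All values of a clone come from 1 array, so its scaling is shared by both genes of a pair. The same counts were not made for pairs of other genes, so these have no share to be set against. Psat1 and Phgdh, neighbouring steps of serine synthesis, had the highest Pearson r, 0.91 (Spearman rho 0.88; exact permutation p = 0.00305 and 0.00724; adjusted p = 0.0571 and 0.261). Without the 2 clones farthest from the median of Psat1 it was 0.84, and on deviations from the group means it was 0.91. With the mean of each gene's probe sets it dropped to 0.38.

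Trib3 and Chac1 had an r of 0.85 (rho 0.79; exact permutation p = 0.00317 and 0.0279; adjusted p = 0.0571 and 0.335). Without the 2 clones farthest from the median of Trib3 it was 0.73, and on deviations from the group means it was 0.96. This pair passed in 1 of the 8 analyses that left out a clone, the one that dropped clone 3 derived without ascorbic acid (r = 0.87; exact permutation, adjusted p = 0.0429). Over all 8 such analyses r was 0.78 to 0.89. The brightest Trib3 probe set is of the _x_at class. On the other Trib3 probe set r with Chac1 was 0.73 (rho 0.55; exact permutation p = 0.0362 and 0.171). The adjusted p of this r, over 153 pairs of probe sets, was 0.383.

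Atf4 ran against one of its targets on its brightest probe set. Its r with Asns was -0.79 (rho -0.79; exact permutation p = 0.00985 and 0.0279; adjusted p = 0.118 and 0.335), and -0.59 without the 2 clones farthest from the Atf4 median. Without clone 1 derived with ascorbic acid alone it was -0.023, because the other Atf4 probe set is then the brighter and was read. With the other Atf4 probe set the same r was 0.17, so that the sign of this relation depends on which Atf4 probe set is read. With Chac1 the r of Atf4 was 0.52 on the brightest and 0.74 on the other probe set (exact permutation p = 0.173 and 0.0535; adjusted p = 0.844 and 0.641). With Ddit3 the sign turned too, from -0.61 on the brightest to 0.47 on the other (exact permutation p = 0.103 and 0.245; adjusted p = 0.744 and 0.694).

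**Figure D4:**
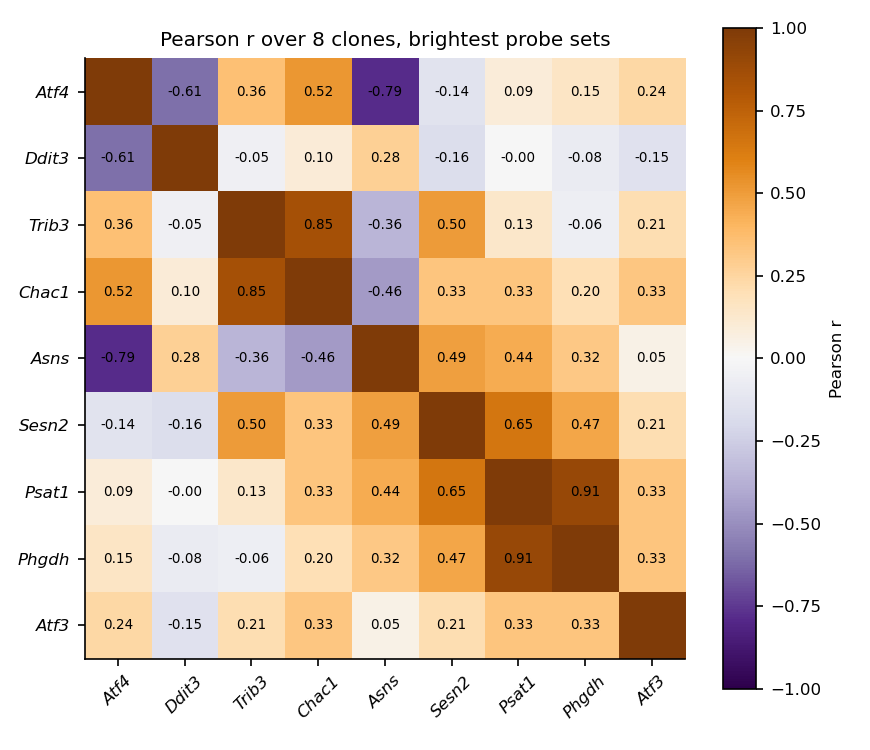
Pearson r over the 8 clones between the brightest probe sets of the 9 tested members, from -1 (purple) to 1 (orange). The highest values are 0.91 for Psat1 with Phgdh and 0.85 for Trib3 with Chac1, and the lowest is -0.79 for Atf4 with Asns; none passed the adjusted threshold.

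Probe sets of 1 gene did not always read the clones alike. Over the 12 pairs of probe sets of the same member, r ran from -0.014 to 0.88 with a median of 0.64, and over the 141 pairs of probe sets of different members from -0.82 to 0.98 with a median of 0.15. Both Sesn2 probe sets had an r of 0.84 and both Trib3 probe sets 0.76. The Atf4 pair was at -0.0012 (rho -0.12; exact permutation p = 0.997 and 0.793) and the Psat1 pair at -0.014 (rho -0.17; exact permutation p = 0.97 and 0.70). Of all 153 pairs, 1 passed the adjusted threshold, and it joined different genes. The brightest Atf4 probe set and the _s_at probe set of Psat1 had an r of 0.98 (rho 0.98; exact permutation p = 9.9e-05 and 0.00040; adjusted p over the 153 = 0.0152), and 0.91 without the 2 clones farthest from the Atf4 median. This _s_at probe set read 5454, 4393, 4639 and 4756 with and 4225, 4928, 4598 and 3696 without ascorbic acid, highest and lowest in the same clones as the brightest Atf4 probe set. Both also followed the 3' to 5' actin ratio more closely than the other probe set of their gene. The r with that ratio over the 8 clones was 0.69 for the brightest Atf4 probe set (rho 0.74; exact permutation p = 0.0823 and 0.0458; adjusted p over the 4 probe sets = 0.165 and 0.139). For the _s_at probe set of Psat1 it was 0.73 (rho 0.69; exact permutation p = 0.0536 and 0.0694; adjusted p = 0.165 and 0.139). It was 0.23 for the other Atf4 and 0.31 for the brightest Psat1 probe set, and the gap between probe sets was not tested. Without the 2 clones whose ratio lies farthest from the median, clone 3 with and clone 4 without ascorbic acid, the first pair of values dropped to 0.26 and 0.45. These relations thus rest in part on those clones. With the 3' to 5' ratio of Gapdh, a second such control, the order was the reverse. There r was 0.20 for the brightest Atf4 and 0.45 for the other Atf4 probe set. For Psat1 it was 0.20 on the _s_at and 0.48 on the brightest probe set, and none of these was tested. Of the 50 tested probe sets most like each, 26% for the brightest Atf4 and 30% for the _s_at probe set of Psat1 were of the _s_at or _x_at class, against 22% and 18% for the other probe set of each gene and 12.3% of all tested. The part of RNA quality and of cross-hybridisation in the shared order of clones was not tested.

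**Figure D5:**
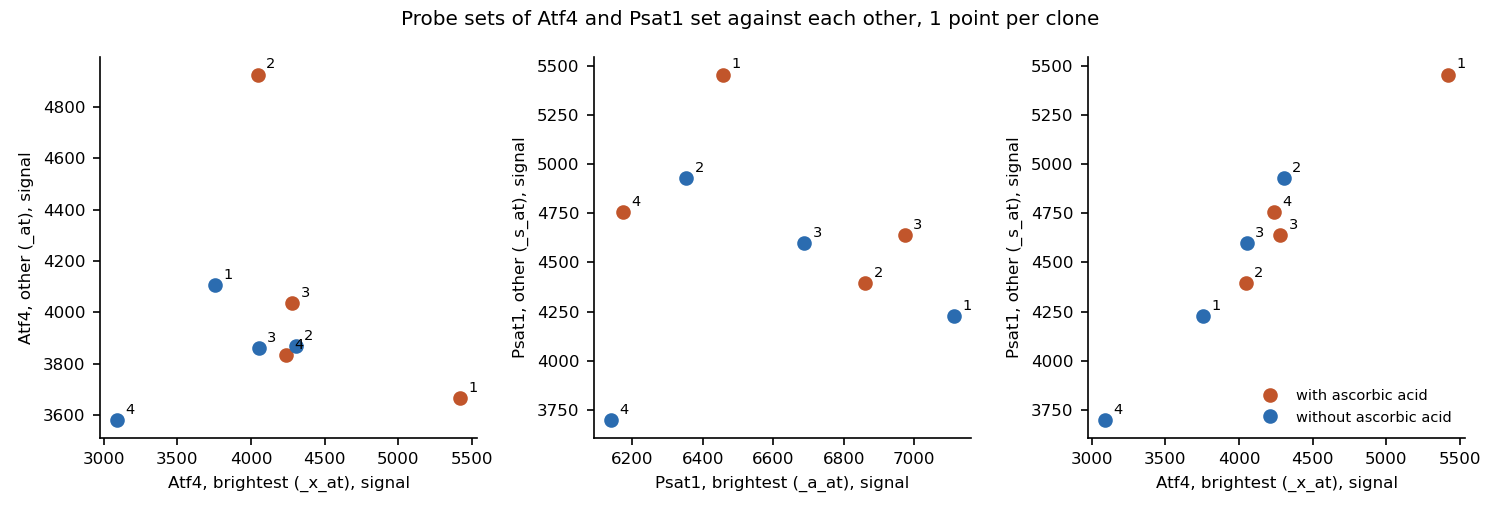
Signal intensity of probe sets of Atf4 and Psat1 against each other, 1 numbered point per clone, orange with and blue without ascorbic acid. The probe sets of the same gene show no common order (r of -0.0012 for Atf4, left, and -0.014 for Psat1, middle), while the brightest Atf4 and the other Psat1 probe set lie along a line (r of 0.98, right).

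The 5 tested genes whose pattern over the 8 clones was most like the brightest Atf4 probe set, by Pearson r, were Cetn2 (0.98), Bloc1s4 (0.98), Hsd17b4 (0.98), Pde12 (0.97) and Csnk1g3 (0.96). Of the members the closest was Chac1, at rank 1878 of 13124 genes, and Asns was at rank 12766. Measured from the other Atf4 probe set, Chac1 was at rank 206 and the first 5 genes were Pomk (0.97), Mrps18b (0.96), Lrrc59 (0.94), Ubap1 (0.93) and Prpf31 (0.92). These ranks are a description over 8 clones.

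The wider pathway was read in 10 further lists, with 93 tested genes of 99 listed. None of the 93 passed (limma, smallest adjusted p = 0.710), and 4 (4.30%), namely Atf5, Gpt2, Pdia4 and Hmox1, had an unadjusted p under 0.05. The groups were apart in 1 gene (1.08%). Both shares lie below those of all tested genes given above. With ascorbic acid 52 (55.9%) were higher and 41 lower, a larger share higher than the 48.6% of all tested genes, and the median log2 difference was 0.012.

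Upstream of ATF4, the eIF2 kinases and the phosphatase subunits that reverse their action counted 2 higher and 4 lower of 6 tested. Ppp1r15b, a subunit that directs dephosphorylation of eIF2, read 1646 ± 120 with and 1476 ± 150 without ascorbic acid. Eif2ak1, the heme-sensing kinase, read 720 ± 61.4 and 795 ± 86.7 (SD, n = 4 each; limma, adjusted p = 0.844 for Ppp1r15b and 0.857 for Eif2ak1). Among partner factors and regulators, 8 of 9 were higher, with a median of 0.16 log2. Atf5, a related factor also controlled by eIF2 phosphorylation, read 537 ± 23.6 with and 454 ± 50.7 without (limma, adjusted p = 0.812). Cebpb, a C/EBP partner of ATF4, read 720 ± 58.8 and 634 ± 37.6 (limma, adjusted p = 0.844), and its log2 difference of 0.18 turned to -0.025 with the mean of its probe sets.

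Downstream, aminoacyl-tRNA synthetases, which charge tRNAs with amino acids, were higher in 6 and lower in 6 of 12, all between -0.079 (Lars) and 0.10 (Wars) log2; Wars was at 0.036 without _s_at and _x_at probe sets. Amino acid transporters were higher in 2 and lower in 7 of 9, with the neutral amino acid transporter Slc1a5 at -0.13 and Slc38a2, a glutamine transporter, at 0.087, which turned to -0.097 with the mean of its probe sets. Enzymes of the serine, one-carbon and amino acid pathways were higher in 6 and lower in 4 of 10. Gpt2, a mitochondrial alanine transaminase, read 807 ± 88.2 with and 694 ± 64.8 without (SD over 4 clones a group; limma, adjusted p = 0.844), and Aldh1l2 was at 0.27 log2. Other stress targets were higher in 7 and lower in 3 of 10, with Vldlr at 0.29 and Bcl2l11 at 0.095. The Vldlr value comes from an _x_at probe set and was 0.00026 without _s_at and _x_at probe sets and 0.15 with the mean of its probe sets.

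Chaperones and sensors of the endoplasmic reticulum, the other arms of the unfolded protein response, were higher in 9 and lower in 7 of 16. Pdia4, a disulfide isomerase of that compartment, was the 1 gene of the 10 lists whose groups were apart. Its signal was 272 ± 40.5 in the clones with ascorbic acid and 386 ± 45.7 in those without it (SD, n = 4 per group). The log2 difference was -0.48 ± 0.13 (SE), which did not pass (limma, adjusted p = 0.710). With the mean of its probe sets it was -0.26 (limma, adjusted p = 0.878). Calr, a calcium-binding chaperone, was at -0.13. NRF2 targets, which overlap with ATF4 in the control of Slc7a11, were higher in 6 and lower in 1 of 7. Hmox1, which degrades heme, read 1428 ± 115 with and 1177 ± 177 without (limma, adjusted p = 0.759), and Srxn1 was at 0.19 log2, against 0.0099 without _s_at and _x_at probe sets and 0.077 with the mean of its probe sets. Targets of p53 were higher in 4 and lower in 2 of 6, with Ccng1 at -0.14 (-0.088 with the mean of its probe sets) and Mdm2 at 0.083. Immediate early genes were higher in 2 and lower in 6 of 8, with Egr1 at -0.17 and Ier3 at 0.092.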

How the data were processed

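The deposited table holds linear signal intensity for each probe set. GCOS, the Affymetrix operating software, is named in the submitters' processing notes; its version and algorithm: not given in the sources used here. In the deposited values each array has a mean of 500 after trimming 2% at each end. Of 45101 probe sets, 64 are controls and 34945 have 1 symbol in the platform annotation.

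The analysis used log2(signal + 16), a scale on which fold changes of dim genes come out too small. Scaling was kept, as array medians spanned 0.199 on this scale, inside the allowed 0.2. The 40% dimmest probe sets by mean over all arrays were left out (signal 93.7), and the brightest remaining probe set stood for a gene, 13125 in all; a second fit covered 27022 probe sets. Groups were compared two-sided with limma 3.58.1 in R 4.3.3 (eBayes with trend), adjusted by Benjamini-Hochberg over the whole table at 0.05, and pairs of members by exact permutation in Python 3.11.15. The limma and pair steps were tested on simulated data. There limma recovered 50% of the genes changed by 0.5 log2 and 90% of those changed by 1 log2. Smaller changes were not simulated. The number of arrays limits the precision.

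Every member is named, and from each further list the 2 genes with the smallest p, as none passed, besides the 5 genes most like Atf4. Members and lists were chosen with earlier results of these data known. The other Atf4 probe set, the probe set pairs and the relations to the actin and Gapdh ratios were chosen after their values were seen.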

Additional observations from a re-analysis of the deposited data

Results flagged for a closer look

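In 60 groups of 4 clones, taken from the members and the genes named from the lists, a clone far from the other 3 was found in 2 (3.33%), where chance gives about 5%. Both are clone 2 with ascorbic acid. It read 812 for Eif2ak1, the others 687 to 694, and 1921 for Slc1a5, the others 1566 to 1597. No member had a clone flagged by this rule in either group. The brightest Atf4 probe set, not flagged, read 5417 in clone 1 with ascorbic acid and 4046 to 4281 in the others of that group.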

How the results depend on the processing

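No member gene and no member probe set passed the adjusted threshold under any of the 20 alternatives (the mean of probe sets has no probe set fit); the alternatives cover the scaling between arrays, the pseudocount, the dim filter, the choice of probe set, the eBayes settings, array weights and the clones used. The number of genes passing was 1 without the trend and 1 with robust estimation, against 3. With the clone number as a replicate block it was 3, with 0 members; same-numbered clones did not deviate together (r = -0.17, -0.058, 0.012 and -0.020 for clones 1 to 4), so the numbers were not read as pairs. Leaving out each clone gave 2 to 4 genes, a median member difference of -0.020 to 0.064 log2 and 0 to 1 member pairs. Directions held under all alternatives for Atf4 (0.087 to 0.31), Chac1, Atf3, Asns and Sesn2. With the mean of probe sets signs turned for Cebpb, from 0.18 to -0.025, Slc38a2, from 0.087 to -0.097, Ddit3, to -0.014, and Trib3, to 0.0062. Among members with differences near 0 signs also turned elsewhere: Trib3 to 0.032 with median centring, 0.014 without _s_at and _x_at probe sets and 0.0052 with array weights; Psat1 to -0.0026 with array weights. Leaving out each clone gave -0.043 to 0.17 for Ddit3, -0.096 to 0.087 for Trib3, -0.022 to 0.048 for Psat1 and -0.020 to 0.064 for Phgdh. With the other Atf4 probe set, 0 member pairs passed.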
